A study of Mus musculus with 22 samples.

Results

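Arterial smooth muscle cells of the lung were compared with those of the stomach across all genes. Members were chosen by library label: 3 lung and 3 stomach libraries, 6 of the 22 in a series that sorted such cells from 7 mouse tissues. All 6 carry the genotype Cspg4-Dre/Acta2-CreERT/R26-GFP and received tamoxifen, injected at 0.75 mg per 10 g body weight over 3 days. Cspg4 encodes the mural cell proteoglycan NG2 and Acta2 encodes smooth muscle alpha-actin, so the reporter depends on promoters that pericytes and visceral or airway smooth muscle can also use. Ages and sexes are not given in the sources used here. The labels do not state whether the 3 libraries of an organ are different animals. The p-values therefore reflect variation among these libraries alone, part or all of which may be technical.

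The lung and the stomach both arise from the foregut, an endodermal tube wrapped in mesenchyme. Endodermal hedgehog ligands signal to that mesenchyme, where Foxf1 and Foxf2 are known targets, and positional genes such as the T-box, Barx and Hox factors then mark each organ's own wall. The smooth muscle of the wall and of part of its vessels comes from this mesenchyme. The comparison asks how far arterial smooth muscle of these organs differs in such factors, in receptors and channels, and in matrix.

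Values are the authors' deposited signal, which is scaled per library, and fold changes are differences of log2(signal + 1), lung minus stomach. A gene was called when limma's Benjamini-Hochberg adjusted p was under 0.05 and the log2 fold change was at least 1 in size. Depth, rebuilt from the steps in the values, ran from 6036394 to 8550430 reads in lung and from 8517765 to 11528380 in stomach. Lung 2 and lung 3 stood apart from lung 1, with 24469 and 25608 genes above 0 against 18331, and 20177 to 20558 in stomach. A second limit concerns abundant genes. Of the 14553 genes tested, 1932 had at least 0.5 reads per base of exon in 1 or more libraries, a level called the read ceiling here, and their median log2 fold change was 0.41 against -0.24 for genes under it. The worth of 1 read was higher in lung than in stomach by 0.49 on the log2 scale, and differences near that size in abundant genes cannot be told apart from it.

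Markers of other cells differed between the organs, and their sums bear on every result below. The summed signal of gastric epithelium markers was 18865 to 23762 in stomach and 38 to 179 in lung, and 14 of the 14 tested were higher in stomach. For pan-epithelial markers the sum was 10521 to 13428 in stomach and 2165 to 2323 in lung, with 9 of 11 higher in stomach. Lung epithelium markers summed to 4656 to 6673 in lung and 533 to 621 in stomach, with 12 of 13 higher in lung. Many gastric and lung epithelium markers could be tested only through their values in the organ where they are high. Their counts were thus largely fixed in advance, and the sums are the description. Immune markers summed to 2593 to 3284 in lung and 397 to 481 in stomach; Lyz2, Cd74, H2-Aa and H2-Ab1 were the called ones. Endothelial sums overlapped, at 7814 to 10480 in lung and 7126 to 8401 in stomach, as did fibroblast sums, at 16161 to 20492 and 16143 to 18573. Pericyte markers summed to 11886 to 12886 in lung and 13652 to 14751 in stomach. Of 15 tested, 3 were higher in lung and 4 in stomach (20% and 26.7%, against 12.1% and 27.2% of all genes). Rgs5 (mean 2263 in stomach, 521 in lung) and Anpep (1450 and 113) weigh heavily in the stomach sum. Visceral and airway muscle markers summed to 11691 to 13985 in lung and 7909 to 9695 in stomach. Yet of 12 tested, 3 were higher in lung and 5 in stomach (25% and 41.7%, against 12.1% and 27.2% of all genes). Since 6 of the 12 lie near the read ceiling, the limit given above for abundant genes applies to that sum. Mesothelial markers summed to 160 to 407 in lung and 1262 to 1801 in stomach. Of 5 tested, however, 2 were higher in lung and 1 in stomach (40% and 20%), and the list shares Krt19 with the pan-epithelial list. Markers of interstitial cells of Cajal, enteric neurons and glia summed to 1023 to 1504 in lung and 1718 to 1857 in stomach. Erythroid markers summed to 49 to 486 in lung and 1 to 3 in stomach. Cardiac and skeletal sarcomere markers summed to 3553 to 5424 in lung and 2610 to 3403 in stomach. Of 15 tested, 6 were higher in lung and 5 in stomach (40% and 33.3%), with a median log2 fold change of -1.37. In bulk samples like these, fewer cells of a type and less RNA per cell cannot be told apart, and the part of other cells in each difference below was not tested.

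The defining smooth muscle genes were abundant in both organs. Acta2 (ENSMUSG00000035783, mm39 chr19:34218490-34232990, minus strand) had a signal of 3264, 2399 and 2732 in lung 1, 2 and 3 and of 1992, 1697 and 1459 in stomach 1, 2 and 3. The groups did not overlap, but the log2 fold change of 0.71 (SE 0.15, limma adjusted p = 0.00397) was below the 2-fold minimum, and the gene is near the read ceiling in rebuilt reads, at 3489 to 3618 in lung and 2994 to 3145 in stomach. Myh11, the smooth muscle myosin heavy chain, was at 8290 ± 855 in lung and 6176 ± 811 in stomach (mean ± SD, n = 3 each), a log2 fold change of 0.43 (SE 0.14). Cspg4 (chr9:56772317-56807154) was at 474, 243 and 250 in lung and 491, 482 and 622 in stomach. All 3 lung values lay below all 3 stomach values, with lung 1 close behind the stomach libraries; the log2 fold change was -0.78 (SE 0.26, adjusted p = 0.0259) and -1.10 without lung 1, where the gene passed both criteria.

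The whole-table comparison shows how different these libraries were. In all, 5715 genes were called, 39.3% of those tested. Of these 1754 (12.1%) were higher in lung and 3961 (27.2%) were higher in stomach. With adjusted p alone 61.9% passed, and in 69.1% the 3 lung and 3 stomach values did not overlap. Large differences were mostly on the stomach side: a log2 fold change of at least 5 was reached by 516 genes higher in stomach and 60 higher in lung. Among 8221 genes with a mean signal of at least 100 in both organs, 782 (9.51%) were higher in lung and 1202 (14.6%) higher in stomach. Long noncoding RNAs made up 14.4% of the genes higher in lung, 2.95% of those higher in stomach and 5.73% of all tested. Lung 2 and lung 3 also stood apart here: 55.4% and 62.4% of their genes at a signal of 1 to 5 were noncoding, against 24.6% in lung 1 and 32.1% to 37.9% in stomach. The part of those libraries in the excess was not tested. With all 22 libraries in 1 fit, 981 genes were higher in lung and 1906 in stomach, and most list counts below fell as well.

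The genes with the largest lung excess included enzymes and secreted inhibitors. Cyp2e1, a cytochrome P450 enzyme, was at 1846, 1751 and 1503 in lung and at 0, 0 and 1 in stomach. Itih4, an inter-alpha-trypsin inhibitor heavy chain, was at 3579, 3540 and 3806 in lung and at 11, 10 and 4 in stomach, 437-fold higher in lung (log2 fold change 8.71, SE 0.32). Sost, which encodes the secreted Wnt inhibitor sclerostin, was at 204, 381 and 350 in lung and 0 in each stomach library, at least 184-fold higher against a floor of 3 reads per library. All lung libraries were far above all stomach libraries for these genes. Timp4, an inhibitor of metalloproteinases, was at 1596 ± 180 in lung and 19.7 ± 1.53 in stomach, 81.2-fold higher in lung. Others named by the same rule were Vsnl1, a calcium-binding protein, Vwc2, a secreted BMP antagonist, Sec14l3, Ccdc42 and Fam47e, together with Pnmt and Tbx5, which are described below. Sec14l3 was listed at 0 in all stomach libraries and was at least 153-fold higher in lung. Among genes abundant in both organs, the largest lung excess was that of Prdm6, a PR-domain transcriptional regulator of smooth muscle, at 2678, 2342 and 1946 in lung and 129, 99 and 137 in stomach (log2 fold change 4.24, SE 0.17, adjusted p = 1.57e-06). Rasl12, a Ras-like protein, and Fam13c each had a log2 fold change of 3.17.

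On the stomach side, the rule named gastric epithelial and endocrine genes. Mucl3, a mucin-like gene, was at 3223, 2782 and 2278 in stomach and at 0, 0 and 6 in lung. A4gnt, the glycosyltransferase of gland mucin, was at 1460, 1488 and 1053 in stomach and 0 in each lung library, at least 562-fold higher in stomach. Pga5, a pepsinogen, was at 1192, 1042 and 759 in stomach against 0, 1 and 0 in lung. Chga, a protein of neuroendocrine granules, Ctse, the aspartic protease cathepsin E, Dmbt1, Pdia2, Pls1, Esrrg, Fam3d, Gsdma2 and the endodermal factor Foxa1 completed that set, each with log2 fold changes between -10.26 and -9.55. These genes were high in the same libraries as the gastric marker sum given above. Among genes abundant in both organs, Sfrp1, a secreted frizzled-related Wnt modulator, was at 3689, 3348 and 3041 in stomach and 173, 155 and 36 in lung (log2 fold change -5.06, SE 0.51). Cldn18, Muc1, Spp1, Mecom, Gfpt1 and Ivns1abp followed, with log2 fold changes between -4.54 and -3.97. Chad was called at -4.28 with an adjusted p of 0.0481, from 290, 25 and 0 in lung, and its call was lost on leaving out lung 2, lung 3 or any stomach library, at adjusted p from 0.0677 to 0.12. With lung 1 alone the log2 fold change of Chad was -0.39.

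Transcription factors of organ mesenchyme divided between the organs. Of 45 tested, 13 (28.9%) were higher in lung and 15 (33.3%) higher in stomach, against 12.1% and 27.2% of all genes, and the median log2 fold change was 0.08 against -0.12 over all genes. T-box factors and Foxc and Osr genes led in lung, and Barx1, Pitx1, Isl1, Gata4 and the Nkx factors led in stomach. The hedgehog targets Foxf1 and Foxf2, with Gata6 and Tcf21, were at similar levels in both.

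To show the start regions of factors at the opposite ends of this comparison, together with a receptor described below, the 250 bases before the RefSeq start are given (GRCm38.p6, plus strand for each, 5′ to 3′). Entries were found for Tbx4, Barx1, Hand2 and Npy1r. Both strands were searched for 3 motifs, and capitals mark the matches. For T-box factors the letters were AGGTGT. For forkhead factors they were TAAACA, and for factors of the Gata family they were AGATAA. Tbx4 lies at chr11:85896515-85896764, Barx1 at chr13:48662786-48663035, Hand2 at chr8:57320733-57320982 and Npy1r at chr8:66697172-66697421.
Tbx4: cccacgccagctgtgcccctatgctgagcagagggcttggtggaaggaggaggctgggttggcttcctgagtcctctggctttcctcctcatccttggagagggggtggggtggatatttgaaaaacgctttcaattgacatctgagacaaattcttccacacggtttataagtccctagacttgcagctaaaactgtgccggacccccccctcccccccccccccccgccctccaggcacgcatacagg
Barx1: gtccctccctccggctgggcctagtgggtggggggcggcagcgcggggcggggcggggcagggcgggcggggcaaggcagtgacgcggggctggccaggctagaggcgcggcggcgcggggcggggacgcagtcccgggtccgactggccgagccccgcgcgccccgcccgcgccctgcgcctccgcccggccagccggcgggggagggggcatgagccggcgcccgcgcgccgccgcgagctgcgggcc
Hand2: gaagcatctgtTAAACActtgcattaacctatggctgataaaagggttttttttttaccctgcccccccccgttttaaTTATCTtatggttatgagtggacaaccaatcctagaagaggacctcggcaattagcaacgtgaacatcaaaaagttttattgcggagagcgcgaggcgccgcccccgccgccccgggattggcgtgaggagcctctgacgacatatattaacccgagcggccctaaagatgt
Npy1r: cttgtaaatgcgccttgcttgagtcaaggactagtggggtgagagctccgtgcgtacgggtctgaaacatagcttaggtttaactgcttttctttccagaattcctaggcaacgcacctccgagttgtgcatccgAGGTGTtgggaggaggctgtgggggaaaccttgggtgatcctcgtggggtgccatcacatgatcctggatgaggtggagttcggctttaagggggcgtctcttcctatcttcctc
The Barx1 window was 85.6% G and C with 40 CpG dinucleotides, and the Tbx4 window was 58.4% with 6, against medians of 52.4% and 6 over 32817 windows. Neither held any of the 3 motifs. The Hand2 window held forkhead letters 239 to 234 bases before the start and, on the opposite strand, Gata-family letters 172 to 167 bases before it. The Npy1r window held T-box letters 115 to 110 bases before the start. Of all windows of that length, 11.8% held the T-box letters, 12% the forkhead letters and 9.99% the Gata-family letters, so such matches are a description and no evidence of binding.

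Tbx4 and Tbx5, which mark lung mesenchyme and act in lung bud and trachea formation, were the clearest lung factors. Tbx4 (ENSMUSG00000000094, mm39 chr11:85777248-85806923) was at 2555, 2312 and 2177 in lung and at 61, 76 and 77 in stomach. The lowest lung library was far above the highest stomach library, 32.9-fold on the means (log2 fold change 5.03, SE 0.14, limma adjusted p = 1.3e-06). Tbx5 (ENSMUSG00000018263, chr5:119970733-120023284) was at 918, 919 and 740 in lung and at 11, 2 and 4 in stomach, a log2 fold change of 7.24 (SE 0.49, adjusted p = 9.73e-06). It was thus close to absent in stomach, where Tbx4 kept a low signal. Tbx18, a mural and epicardial factor, was at 36, 59 and 49 in lung and 1, 0 and 0 in stomach. Tbx2, a repressor of the same family, was at 2517 ± 181 and 1628 ± 80.9, which did not reach 2-fold, and Tbx3 was higher in stomach (log2 fold change -1.20).

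Other lung factors were of the forkhead, odd-skipped and Notch-effector families. Foxc1, a regulator of vessel development, was at 640, 753 and 648 in lung and 77, 109 and 95 in stomach, and its relative Foxc2 was at 257, 316 and 207 against 21, 30 and 34. Osr2 was at 615, 418 and 546 in lung and 54, 47 and 100 in stomach, and Osr1 had a log2 fold change of 1.84. Foxs1, a forkhead factor of perivascular cells, was at 886 ± 42.3 in lung and 138 ± 29.5 in stomach. Heyl, a Notch effector of smooth muscle, was at 4155, 3608 and 3532 in lung and 824, 689 and 874 in stomach (log2 fold change 2.24, SE 0.12). No lung value overlapped a stomach value in these genes. Prrx1, Hlx and Gata3 were also called, with log2 fold changes between 1.59 and 2.08, as was Zfpm2.

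Barx1, the homeobox factor that marks stomach mesenchyme, was at 1093, 905 and 959 in stomach and at 1, 6 and 0 in lung (chr13:48816474-48819983 in mm39; log2 fold change -8.67, SE 0.64, adjusted p = 1.56e-05). Pitx1, a homeobox factor of hindlimb and other mesenchyme, was at 910, 778 and 887 in stomach and 3, 1 and 1 in lung. Isl1, a LIM homeobox factor with a role in pylorus formation, was at 460, 478 and 495 in stomach against 0, 11 and 5. In all 3 genes lung was at or near 0 while no stomach library was below 460. Gata4, a zinc-finger factor of foregut endoderm and heart, was at 2114, 2229 and 1795 in stomach and 22, 29 and 8 in lung, a log2 fold change of -6.79 (SE 0.40). Nkx2-3, a homeobox factor of gut mesenchyme, was at 75, 76 and 103 in stomach and 0, 1 and 1 in lung. Hand2 was at 45, 33 and 49 in stomach and 0, 2 and 3 in lung, low in both organs but not overlapping. Nkx3-2 and Foxq1 were higher in stomach by log2 fold changes of -4.51 and -4.45, and Sox9, also an epithelial factor, by -2.84. Gata4, Foxq1 and Sox9 are used by gastric epithelium too, and the gastric marker sums were also higher in stomach.

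Foxf1, the forkhead factor that splanchnic mesenchyme makes in response to hedgehog, was at 1847, 1868 and 1760 in lung and at 1515, 1425 and 1238 in stomach. The groups did not overlap, yet the log2 fold change was 0.39 (SE 0.11, adjusted p = 0.0124), under the 2-fold minimum and close to the median of genes near the read ceiling. Foxf2 was at 688 ± 121 in lung and 847 ± 105 in stomach (log2 fold change -0.31, SE 0.15, adjusted p = 0.112), with overlapping libraries. Gata6 was at 890 ± 87.7 and 909 ± 45.1, a log2 fold change of -0.03 (SE 0.11). Tcf21, a mesenchymal factor of lung, heart and kidney, was at 1015 ± 210 and 933 ± 78.5, and Nr2f2, a nuclear receptor of venous and mesenchymal cells, at 1170 ± 164 and 1009 ± 15.1. None of these 5 was called.

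**Figure D1:**
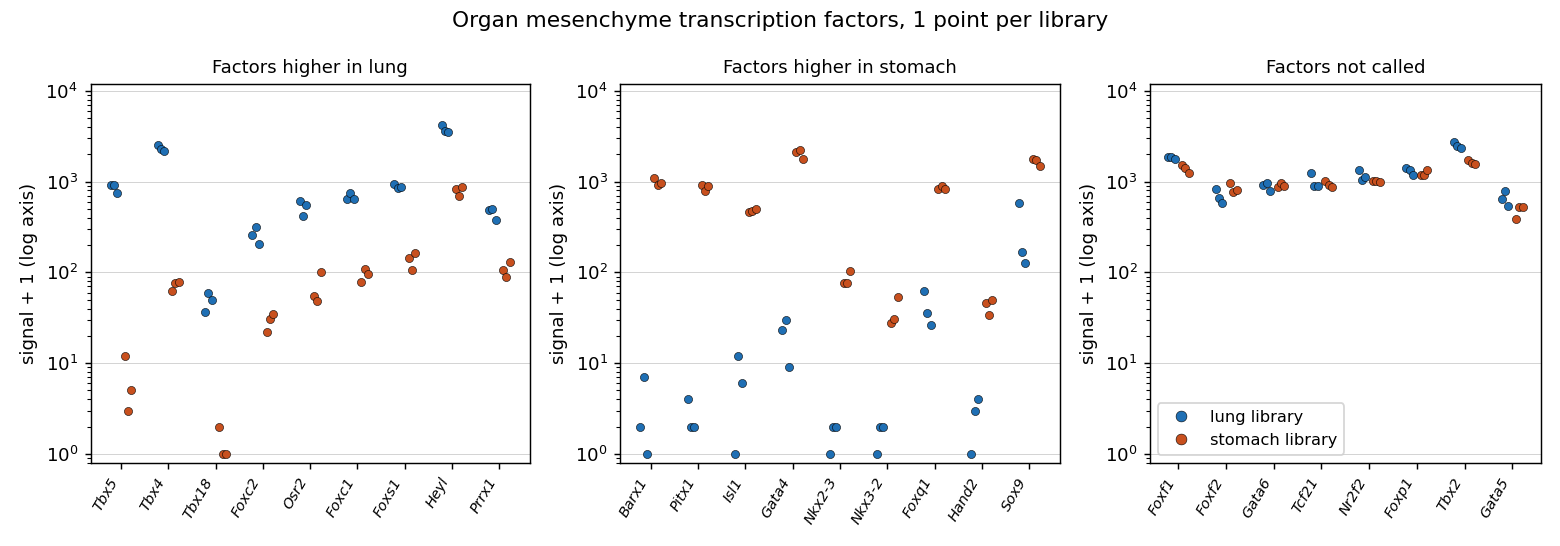
Signal + 1 on a log axis for organ mesenchyme transcription factors, 1 point per library, lung in blue and stomach in orange; the left panel holds factors called higher in lung, the middle panel factors called higher in stomach and the right panel factors not called. Tbx5 (740 to 919 in lung, 2 to 11 in stomach) and Barx1 (0 to 6 in lung, 905 to 1093 in stomach) separate in opposite directions, while the Foxf2 and Gata6 points overlap.

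Hox genes, which encode position along the body axis, separated by cluster. Of 18 tested, 11 were higher in lung and 5 higher in stomach (61.1% and 27.8%, against 12.1% and 27.2% of all genes), and the median log2 fold change was 1.38. With all 22 libraries in 1 fit 4 were higher in lung. Of 13 tested genes of the A and B clusters, 11 were higher in lung and 0 in stomach; Hoxa3 and Hoxa6 were not called, at 0.23 and 0.29. Of 5 tested genes of the C and D clusters, 5 were higher in stomach. Hoxc4, Hoxc5, Hoxc6 and Hoxd8 passed the filter for testing only through their stomach values. This count and the 27.8% above were thus largely fixed in advance, and for these clusters the summed signal below is the description. The split by cluster was made after the values were seen. Summed signal of A and B cluster genes was 2440 to 2951 in lung and 588 to 852 in stomach, whereas the C and D sum was 20 to 34 in lung and 229 to 300 in stomach. Neither pair of ranges overlapped.

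Hoxb5, which acts in lung and enteric development, was at 611, 663 and 604 in lung and 83, 77 and 108 in stomach (log2 fold change 2.81, SE 0.18, adjusted p = 7.44e-06). Its neighbour Hoxb6 was at 465, 378 and 331 against 61, 46 and 92. Hoxa5, required in lung mesenchyme, was at 477, 369 and 296 in lung and 87, 81 and 113 in stomach, and Hoxa7 was at 288 ± 10.5 and 63.3 ± 32.6. These A and B genes were present in both organs, higher in every lung library than in any stomach library. Hoxd8 was at 64, 85 and 78 in stomach and 0, 1 and 1 in lung. Hoxc6 was at 25, 16 and 38 in stomach and 0, 1 and 1 in lung, while Hoxc4, at 94, 57 and 96, and Hoxc5, at 59, 55 and 73, exceeded lung values of at most 19 and 9. Hoxd9 was called at a log2 fold change of -2.60. Hox clusters hold overlapping and antisense transcripts, and whether reads were counted by strand is not given in the sources used here. Among 9 Meis and Pbx cofactors, Meis3 was higher in lung and Pbx3 and Pbx2 in stomach. These shares, 11.1% and 22.2%, are near the 12.1% and 27.2% of all genes. Meis3 had a log2 fold change of 0.90 with lung 1 alone, and Pbx2 lost its call without lung 1. Without lung 1, 2 cofactors were higher in lung, and without lung 2, 4 were higher in stomach.

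**Figure D2:**
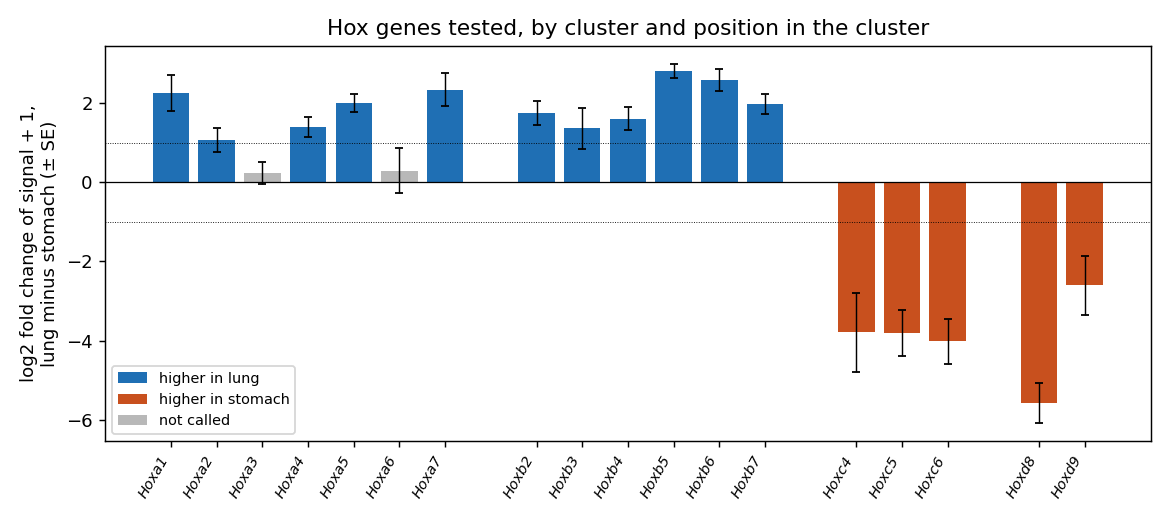
Log2 fold change of signal + 1, lung minus stomach, for the 18 Hox genes tested, grouped by cluster; bars start at 0, error bars are the limma SE and dotted lines mark a 2-fold difference. Bars of the A and B clusters point up and those of the C and D clusters point down.

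Levels in the other tissues place these genes, as a description with no test. Tbx4 averaged 2348 ± 192 in lung, 794 ± 246 in bladder (n = 3), 160 ± 43.6 in intestine (n = 4) and 71.3 ± 8.96 in stomach, and 91 ± 87.4 or less in heart, aorta and kidney. Tbx5 averaged 137 ± 30.3 in bladder, the nearest to lung, and was 0 in each intestine library. Barx1 was next highest in intestine, at 228 ± 151, and at 2.33 ± 3.21 or less in lung and in bladder, kidney, heart and aorta. The gut factor Nkx2-3 was far higher in intestine (1806 ± 233) than in stomach (84.7 ± 15.9), whereas Gata4 was higher in stomach than in heart (997 ± 327) and intestine (486 ± 126). Hearts carried Cspg4-DreERT in place of Cspg4-Dre, so tissue and genotype cannot be told apart there. Hand2 was highest in bladder (151 ± 32.5) and heart (115 ± 29.7), and averaged 61.5 ± 20.2 in intestine, above the 42.3 ± 8.33 of stomach. Foxf1 averaged 3081 ± 291 in bladder, 1825 ± 57.3 in lung, 1720 ± 191 in intestine and 1393 ± 141 in stomach, and 280 ± 199 or less in heart, aorta and kidney. Foxf2 was likewise lowest in heart and kidney, at 4.33 ± 6.66 and 0.67 ± 1.15, and highest in intestine, at 1338 ± 183. Bladder and intestine thus shared the Foxf genes with lung and stomach. Itih4 averaged 3642 ± 144 in lung, 3221 ± 1069 in aorta, 2396 ± 617 in heart and 14 ± 5.72 in intestine. In lung it lies near the read ceiling, and the aorta libraries were shallow, so equal abundance in lung and aorta cannot be claimed. Over all tested genes, lung was the highest of the 7 tissues in 16.9%, and in 51.9% of those called higher in lung. For stomach the shares were 21.5% and 54.3%. The calls used the same lung and stomach values, so part of each rise is built in.

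**Figure D3:**
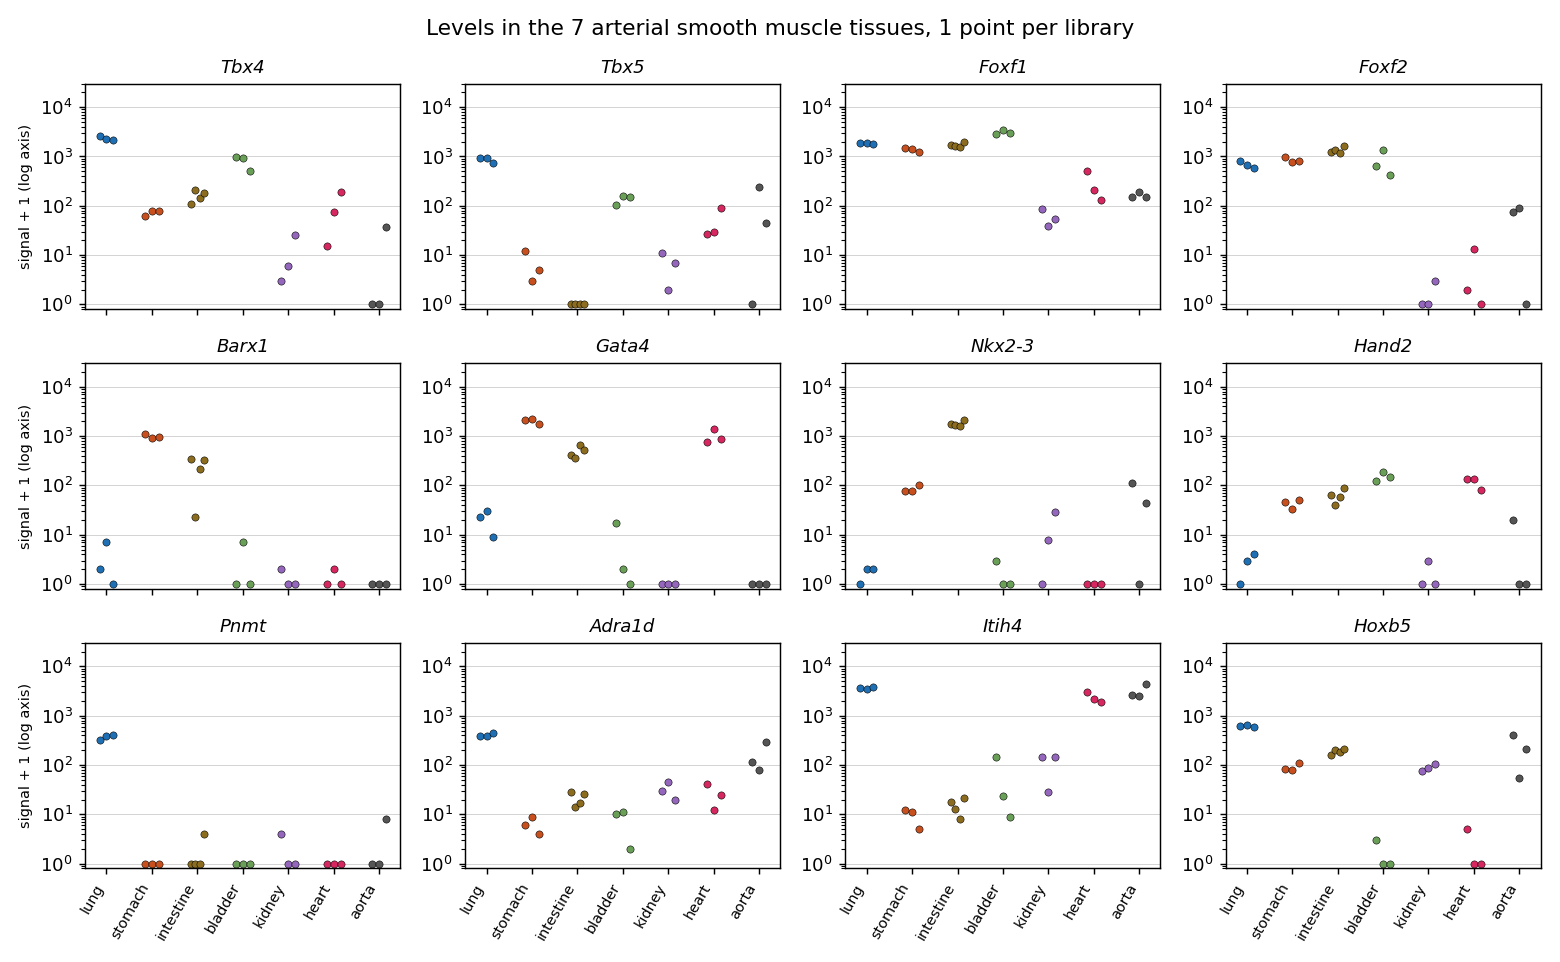
Signal + 1 on a log axis in each of 7 arterial smooth muscle tissues for 12 genes, 1 point per library. Tbx4 and Tbx5 peak in lung, Barx1 in stomach and Nkx2-3 in intestine, and Itih4 is high in lung, heart and aorta.

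Genes for catecholamine handling were higher in lung. Of 7 tested enzymes and transporters, 5 were called higher in lung and 0 in stomach, with a median log2 fold change of 2.40 (71.4%, against 12.1% of all genes). Pnmt, which converts noradrenaline to adrenaline, was at 326, 385 and 415 in lung and 0 in each stomach library, at least 221-fold higher in lung (log2 fold change 8.55, SE 0.40, limma adjusted p = 2.72e-06). In the other tissues Pnmt averaged 2.33 ± 4.04 or less, and in intestine 0.75 ± 1.5. The aorta and heart 3 values lie under the floor of 3 reads in those shallow libraries. Maob, a monoamine oxidase, was at 1599, 1588 and 1259 in lung and 207, 228 and 305 in stomach. Its relative Maoa was at 891, 603 and 508 against 224, 222 and 257. The oxidases were thus present in both organs at different levels. Slc22a3, a low-affinity monoamine transporter, was at 90, 60 and 52 in lung and 12, 8 and 16 in stomach. Slc6a2, the noradrenaline transporter of sympathetic neurons, was at 14, 56 and 43 against 1, 10 and 4 and lost its call with lung 1 alone (adjusted p = 0.175). Ddc, which makes dopamine, was not called, at a log2 fold change of 0.20.

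Of 8 tested adrenergic receptors, 3 were higher in lung and 1 in stomach (37.5% and 12.5%, against 12.1% and 27.2% of all genes). With all 22 libraries in 1 fit 1 was higher in lung. Adra1d, an alpha-1 receptor that mediates arterial contraction, was at 385, 379 and 456 in lung and 5, 8 and 3 in stomach, 76.3-fold higher in lung (log2 fold change 6.08, SE 0.39, adjusted p = 8.28e-06). It averaged 160 ± 115 in aorta and 20.5 ± 7.14 in intestine. Adrb1, a beta-adrenergic receptor, was at 99, 42 and 96 in lung and 15, 20 and 20 in stomach. For Adra1d and Adrb1 each lung library exceeded each stomach library. Adra2a, an alpha-2 receptor, went the other way, at 148, 79 and 191 in stomach and 0, 1 and 4 in lung. Adra1a, Adra1b, Adra2b and Adrb3 were not called, with log2 fold changes between -1.45 and 1.03; without lung 1 or without lung 2 the stomach count was 2.

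Of 29 peptide receptors and ligands tested, 6 were higher in lung and 13 in stomach (20.7% and 44.8%), both shares above the 12.1% and 27.2% of all genes, and with all 22 libraries in 1 fit 8 were higher in stomach. Npy1r, the receptor through which neuropeptide Y contracts arteries, was at 878, 1158 and 1018 in lung and 83, 118 and 90 in stomach (log2 fold change 3.39, SE 0.18). Across tissues Npy1r averaged 926 ± 368 in aorta to 1675 ± 181 in kidney, apart from stomach and intestine, which were lower, at 97 ± 18.5 and 282 ± 58.4. Npr3, a natriuretic peptide clearance receptor, Ramp1, a subunit of the CGRP receptor, Adm, the vasodilator peptide adrenomedullin, and Npr1 were also higher in lung. Ednrb, an endothelin receptor, was at 1394, 1946 and 1741 in lung and 766, 822 and 621 in stomach, and fell below 2-fold with lung 1 alone (0.93). Ednra, the main contractile endothelin receptor, differed by 0.54 and was not called. On the stomach side, Avpr1a, the vasopressin receptor of vascular muscle, was at 134, 115 and 246 against 0, 1 and 1 in lung. Agtr1b, an angiotensin receptor, was at 327, 265 and 202 in stomach against 1, 1 and 8, and Vipr2, a receptor for vasoactive intestinal peptide, at 272, 320 and 290 against 12, 19 and 3. Lung libraries were close to 0 for the first pair and low for the third. Bdkrb2, a bradykinin receptor, was at 379, 360 and 342 in stomach and 1, 29 and 25 in lung. Sctr, the secretin receptor, was listed at 0 in each lung library and was at least 63.6-fold higher in stomach.

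Receptors for prostanoids, purines, amines and lipids, with their enzymes, gave 11 higher in lung and 19 higher in stomach of 42 tested (26.2% and 45.2%, against 12.1% and 27.2% of all genes), or 6 and 11 with all 22 libraries in 1 fit. The purine receptors split: P2rx1, an ATP-gated channel of arterial muscle, was at 1737, 1840 and 2774 in lung and 344, 235 and 231 in stomach. P2ry6 was at 250, 320 and 425 against 17, 17 and 19, and P2rx5 at 173, 212 and 259 against 9, 7 and 16. P2ry1 was instead at 234, 231 and 303 in stomach and 14, 7 and 15 in lung. No values overlapped between the organs for these receptors. Htr2a, a contractile serotonin receptor, was at 130, 53 and 94 in lung and 1, 7 and 1 in stomach. Tbxa2r, the thromboxane receptor, was at 949 ± 36.5 in lung and 291 ± 55.2 in stomach, and S1pr3, a sphingosine 1-phosphate receptor, was at 2104 ± 629 and 473 ± 32.1. Among prostaglandin E receptors, the relaxing Ptger2 was higher in lung (log2 fold change 2.03) and Ptger3 was higher in stomach (-2.08). Hrh2, the histamine receptor of acid-secreting parietal cells, was at 224, 281 and 182 in stomach and at 0, 2 and 2 in lung.

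Potassium channels set the membrane potential of arterial muscle, and 9 of 30 were higher in lung and 12 in stomach (30% and 40%, against 12.1% and 27.2% of all genes). Kcnk3, the acid-sensitive TASK-1 channel, was at 3132, 2474 and 2843 in lung and 417, 406 and 510 in stomach (log2 fold change 2.66, SE 0.13, adjusted p = 3.38e-06). Kcna5, the voltage-gated Kv1.5 channel, was at 954, 757 and 846 in lung and 177, 157 and 150 in stomach. Kcnj8, the pore of the vascular ATP-sensitive channel, was at 1314 ± 146 and 378 ± 69.7, and Kcnmb1, the smooth muscle subunit of the large-conductance calcium-activated channel, at 1701 ± 49.1 and 660 ± 34.1. Its pore gene Kcnma1 did not differ beyond the spread, at 256 ± 54.1 and 239 ± 75.5. All 4 called channel genes were above the stomach range in each lung library. Kcnq1, a channel of parietal cells, was at 1693, 1736 and 1487 in stomach and 15, 24 and 5 in lung. Kcnj15, another parietal cell channel, and Kcne3, an accessory channel subunit, had log2 fold changes of -7.15 and -7.56. The gastric markers were also higher in stomach, and the part of parietal cells was not tested. Kcnn3, a small-conductance channel, was at 383, 365 and 515 in stomach and 0, 17 and 15 in lung.

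Of 44 calcium handling genes and cation or chloride channels, 18 were higher in stomach and 3 in lung (40.9% and 6.82%, against 27.2% and 12.1% of all genes). With all 22 libraries in 1 fit the numbers were 6 and 1. Cacna1c, the main voltage-gated calcium channel of arterial muscle, was at 419, 272 and 336 in lung and 157, 187 and 219 in stomach, a log2 fold change of 0.85 that was not called. Cacna1h, a T-type calcium channel, was at 450, 428 and 412 in stomach and 10, 19 and 19 in lung. Itpr3, an inositol trisphosphate receptor also abundant in epithelium, was at 626, 870 and 637 in stomach and 7, 6 and 12 in lung. Stomach was above lung in each library for both. The mechanosensitive channel Piezo1 was at 298, 281 and 388 in stomach and 34, 37 and 26 in lung. Casq1, a calcium store protein best known from skeletal muscle, was at 150, 759 and 717 in lung and 12, 25 and 19 in stomach; with lung 1 alone the number higher in lung was 5.

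Contractile genes mostly differed by less than 2-fold. Of 40 tested, 7 were higher in lung and 3 in stomach (17.5% and 7.5%, against 12.1% and 27.2% of all genes), and 0 were higher in stomach with all 22 libraries in 1 fit. The organs did not overlap in 36 of the 40, against 69.1% of all tested genes. By adjusted p alone 27 were higher in lung, against 3962 of the 14553 genes tested. The median log2 fold change was 0.52, and 23 of the 40 lie near the read ceiling; under it 3 were higher in lung. Smtnl2, a smoothelin-like protein, was at 1556, 1860 and 1188 in lung and 175, 151 and 257 in stomach (log2 fold change 2.99, SE 0.23). Itga8, an integrin subunit of smooth muscle, was at 2871, 2418 and 2171 in lung and 602, 538 and 500 in stomach, and lies under the ceiling. Lmod1, an actin nucleator, Ppp1r14a, an inhibitor of myosin phosphatase, and Hspb6, a small heat shock protein, were higher in lung by 1.49 to 1.57 on the log2 scale. Flnc, a filamin, was higher in stomach, at 698, 725 and 896 against 201, 247 and 190, and Vcl, the adhesion protein vinculin, at 1449, 1399 and 1238 against 456, 416 and 401. For these genes the organs did not overlap. Mrtfa, a coactivator of SRF, was called at -1.11 but fell below 2-fold without lung 3 (-0.98) and with lung 1 alone (-0.66). Actg2 and Des, which mark visceral as well as vascular muscle, were at log2 fold changes of 0.50 and 0.63 and were not called. Actin paralogs share near-identical coding sequence, so reads may be split between Acta2, Actg2, Actc1 and Acta1.

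Markers shared with airway and visceral muscle also differed. Lgr6, an R-spondin receptor that marks airway smooth muscle, was at 827, 1544 and 1244 in lung and 31, 13 and 54 in stomach. Hhip, a hedgehog-binding protein, was at 4054, 4103 and 2713 in lung and 1769, 1844 and 1403 in stomach, and its log2 fold change of 1.10 lies near the minimum. Tacr2, a neurokinin receptor of gut muscle, was at 49, 75 and 80 in stomach and 0, 1 and 6 in lung. The muscarinic receptors divided, with Chrm2 higher in lung (1.30) and Chrm3 higher in stomach (-2.80). Among sarcomere genes, which were called in both directions, the cardiac genes Actc1 and Tnnt2 were higher in lung. They were at 2170 ± 356 against 293 ± 62.9 and 707 ± 157 against 16 ± 9.54. Acta1 was erratic in lung, at 0, 877 and 35 against 1160, 980 and 925 in stomach, and its call was lost without lung 1, lung 3 or any stomach library (adjusted p from 0.0783 to 0.107). Among pericyte markers, Rgs5, a regulator of G protein signalling, was higher in stomach at 2366, 2211 and 2211 against 465, 507 and 591, while Cox4i2 and Ndufa4l2 were higher in lung.

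Collagen and basement membrane genes were called higher in stomach more often than the 27.2% of all genes. No fibrillar or associated collagen was called higher in lung, and 11 of 20 (55%) were higher in stomach, with a median log2 fold change of -1.54; with all 22 libraries in 1 fit the number was 7. Col6a5, a collagen VI chain, was at 542, 551 and 611 in stomach and 0, 4 and 6 in lung. Col5a1, a regulatory chain of collagen fibrils, was at 4933, 4401 and 4766 in stomach and 977, 1203 and 624 in lung, and Col6a3 at 4301, 4109 and 4384 against 964, 900 and 807. Col12a1 and Col5a3 were higher in stomach by log2 fold changes of -3.26 and -3.90. By contrast the major chains Col1a1 and Col3a1, which are near the read ceiling, were at 0.20 and 0.28 and were not called. Of 25 basement membrane genes 15 (60%) were higher in stomach and 1, Egflam, in lung (median -1.18); with all 22 libraries 8 and 0 were. Nid1, a linker of laminin and collagen IV, was at 2945, 2909 and 2826 in stomach and 441, 381 and 426 in lung, a log2 fold change of -2.80 (SE 0.10). Lamb1, a laminin chain, was at 2568, 2423 and 2249 in stomach and 503, 378 and 178 in lung, and the heparan sulphate proteoglycan Hspg2 was at 1803, 1728 and 2423 against 287, 371 and 413. Stomach exceeded lung in each library for these 3. Egflam lost its call without lung 2 or without stomach 1, just under the minimum, and 2 genes were higher in lung without lung 3 and with lung 1 alone.

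Matricellular proteins and elastic fibre genes were called at shares near those of all genes (12.1% in lung and 27.2% in stomach). Of 33 proteoglycans and matricellular proteins, 5 were higher in lung, or 3 without lung 1, and 8 in stomach (15.2% and 24.2%), and with all 22 libraries 3 were higher in lung. Ccn5, a growth-restraining CCN protein of smooth muscle, was at 3143, 2231 and 2548 in lung and 348, 287 and 356 in stomach (log2 fold change 2.99, SE 0.15), and Ccn3 was at 4268, 2886 and 3230 against 494, 667 and 584. Ccn2, of the same family, differed by 0.75 and was not called. Tnc, the glycoprotein tenascin C, was at 3181, 3115 and 2895 in stomach and 262, 218 and 258 in lung, and Cilp, a matrix protein of cartilage and fibroblasts, at 2827, 2781 and 2754 against 92, 58 and 102. Stomach values were several times the highest lung value for both. Of 23 elastic fibre genes, 3 were higher in lung and 7 in stomach (13% and 30.4%), the latter 4 with all 22 libraries. Elastin itself, Eln, was at 5634 ± 861 in lung and 4041 ± 625 in stomach and was not called (0.48). The crosslinking enzymes divided, with Loxl1 at 3288, 2833 and 3265 in lung against 1605, 1338 and 1548 in stomach, and Lox at 2181, 2129 and 1829 in stomach against 622, 563 and 345 in lung. The log2 fold change of Loxl1, 1.06, fell to 0.99 without stomach 2.

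Of 15 hedgehog genes tested, 5 were higher in stomach and 1, Hhip, in lung (33.3% and 6.67%, against 27.2% and 12.1% of all genes). With all 22 libraries in 1 fit 2 and 0 were. The ligands Shh and Ihh, which epithelium makes, were at 69, 83 and 64 and at 604, 650 and 578 in stomach, and at 0, 3 and 1 and 55, 48 and 36 in lung. Ptch1, the receptor and a target of the pathway, was at 819, 690 and 653 in stomach and 214, 172 and 167 in lung (log2 fold change -1.96, SE 0.16). The effectors Gli2 and Gli3 were higher in stomach (-1.55 and -1.98), and Gli1, a target and effector, was at 195 ± 20.5 against 102 ± 9.87, under 2-fold at -0.92. With lung 1 alone 9 of the 15 were called higher in stomach, and without lung 2 or without stomach 3 Hhip fell just under the minimum and was no longer called. Without lung 3 and with lung 1 alone, 2 hedgehog genes were higher in lung.

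In the BMP family, 5 of 35 tested genes were higher in lung and 10 in stomach (14.3% and 28.6%), shares near the 12.1% and 27.2% of all genes. With lung 1 alone 10 were higher in lung, and with all 22 libraries in 1 fit 6 were higher in stomach. Bmp3, an atypical ligand that antagonises BMP signalling, was at 1278, 939 and 1030 in lung and 43, 37 and 45 in stomach (log2 fold change 4.66, SE 0.18). Bambi, a pseudoreceptor, was at 1481, 1300 and 1212 in lung and 165, 180 and 158 in stomach, and Gdf10, a relative of Bmp3, at 432, 982 and 687 against 58, 90 and 102. The secreted antagonist Grem1 was higher in stomach, at 187, 90 and 214 against 0, 34 and 14 in lung. Another secreted antagonist, Sostdc1, was at 158, 220 and 198 in stomach and 0, 1 and 1 in lung, and the ligand Bmp4 was at 1136, 1000 and 978 against 666, 471 and 282.

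Of 43 Wnt pathway genes tested, 7 were higher in lung and 16 in stomach (16.3% and 37.2%, against 12.1% and 27.2% of all genes), the latter 8 with all 22 libraries in 1 fit. Wnt11, a noncanonical ligand, was at 810, 545 and 333 in lung and 122, 135 and 118 in stomach, and the inhibitor Wif1 was at 316, 243 and 97 against 29, 12 and 41. Wnt5a, another noncanonical ligand, was at 707, 771 and 566 in stomach and 380, 258 and 234 in lung, and Fzd4, a receptor, at 992, 1173 and 843 against 130, 184 and 94. Wnt2, known from lung mesenchyme, was at 40, 23 and 59 in lung and 20, 14 and 15 in stomach and did not pass (adjusted p = 0.0535). Axin2, a canonical target, was not called at -0.16.

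Of 22 FGF pathway genes, 5 were higher in lung and 7 in stomach (22.7% and 31.8%, against 12.1% and 27.2% of all genes). With all 22 libraries in 1 fit the numbers were 3 and 4. Fgf18, a ligand of lung mesenchyme, was at 564, 676 and 531 in lung and 43, 21 and 52 in stomach, and Fgf16 was at 213, 192 and 143 against 14, 8 and 6. Fgf7, a mesenchymal ligand for epithelium, was at 940, 566 and 495 in lung and 242, 224 and 248 in stomach. Lung was higher in each library for all 3 ligands. Fgf10, the bud ligand of the lung, was at 135, 92 and 16 in lung and 65, 88 and 104 in stomach and was not called. The FGF target genes Etv4 and Etv5 were higher in stomach, with Etv5 at 405, 378 and 610 against 76, 46 and 46. In the Notch list, 4 of 19 were higher in lung, Hey2 and Heyl leading, and 8 in stomach, led by Dlk1 and Jag2 (21.1% and 42.1%), the latter 3 with all 22 libraries. Notch3, the receptor of arterial muscle, was at 1030 ± 37 in lung and 1138 ± 194 in stomach and was not called.

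Secreted factors that act on endothelium and nerves were called in both directions. Of 28 angiogenic and IGF factors, 7 were higher in lung and 10 in stomach (25% and 35.7%, against 12.1% and 27.2% of all genes), the latter 4 with all 22 libraries in 1 fit. Angpt2, a ligand of the endothelial receptor Tie2, was at 2649, 2202 and 2308 in lung and 334, 207 and 346 in stomach, and its relative Angpt1 was at 805, 745 and 431 against 122, 101 and 76. Pgf, a ligand of the VEGF family, was at 1829, 1489 and 1557 in lung and 217, 170 and 189 in stomach (log2 fold change 3.08, SE 0.14). Lung exceeded stomach in each library for these. Vegfa itself was higher in stomach, at 944 ± 29.8 and 435 ± 21.1, as was the receptor Pdgfra, a fibroblast marker too, at 1958, 1989 and 1943 against 306, 306 and 207. Of 36 guidance and neurotrophic cues, 7 were higher in lung and 16 in stomach (19.4% and 44.4%), or 4 and 7 with all 22 libraries. Bdnf, a neurotrophin, was at 588, 351 and 319 in lung and 25, 25 and 22 in stomach, and Ntf3, a neurotrophin of sympathetic targets, at 1352, 949 and 993 against 211, 245 and 248. Ntn4, a basement membrane netrin, was 4.23-fold higher in lung. The repellent Sema3a was at 299, 288 and 265 in stomach and 1, 25 and 22 in lung, and Nrp2 was higher in stomach (-3.75) while Nrp1 was higher in lung (1.67).

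Cell cycle genes were higher in stomach: 24 of 29 tested (82.8%, against 27.2% of all genes, and 14 with all 22 libraries in 1 fit), with 2 higher in lung and a median log2 fold change of -3.90, the largest median among the lists shown in the plot of gene lists. Mki67, a marker of dividing cells, was at 617, 578 and 496 in stomach and 19, 12 and 11 in lung (log2 fold change -5.27, SE 0.29). Birc5, a mitotic survivin, was at 395, 428 and 389 against 22, 2 and 0. The cell cycle inhibitors Cdkn1a and Cdkn1b were the pair higher in lung. The gastric and pan-epithelial sums were also higher in stomach, and the part of epithelial cells in this difference was not tested. Lipid genes gave 6 higher in lung and 11 in stomach of 29 (20.7% and 37.9%, against 12.1% and 27.2% of all genes). With all 22 libraries 6 lipid genes were higher in stomach. Nr1h3, the oxysterol receptor LXR alpha, was at 883, 912 and 915 in lung and 98, 126 and 138 in stomach, whereas the synthesis enzyme Fasn was at 1469, 1816 and 1491 in stomach and 186, 157 and 123 in lung.

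Of 19 clock genes tested, 3 were higher in lung and 1 in stomach (15.8% and 5.26%, against 12.1% and 27.2% of all genes), and their summed signal was 6338 to 9097 in lung and 4684 to 5137 in stomach. Nr1d1, a clock repressor, was at 386, 2029 and 1782 in lung 1, 2 and 3 and at 347, 454 and 535 in stomach. Dbp, a clock output factor, was at 35, 316 and 442 in lung and 51, 71 and 63 in stomach. The lung libraries differed among themselves in both genes. Lung 1 was at the stomach level in both while lung 2 and lung 3 were several times higher, and neither was called (adjusted p = 0.059 and 0.146). Without lung 1 the number higher in lung was 6 and the log2 fold change of Nr1d1 was 2.11. With lung 1 alone 5 were higher in lung and 5 in stomach, and without lung 2 or lung 3 the stomach number was 2. Rora, a clock activator, was higher in each lung library, at 1402, 1365 and 1074 against 420, 451 and 481.

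**Figure D4:**
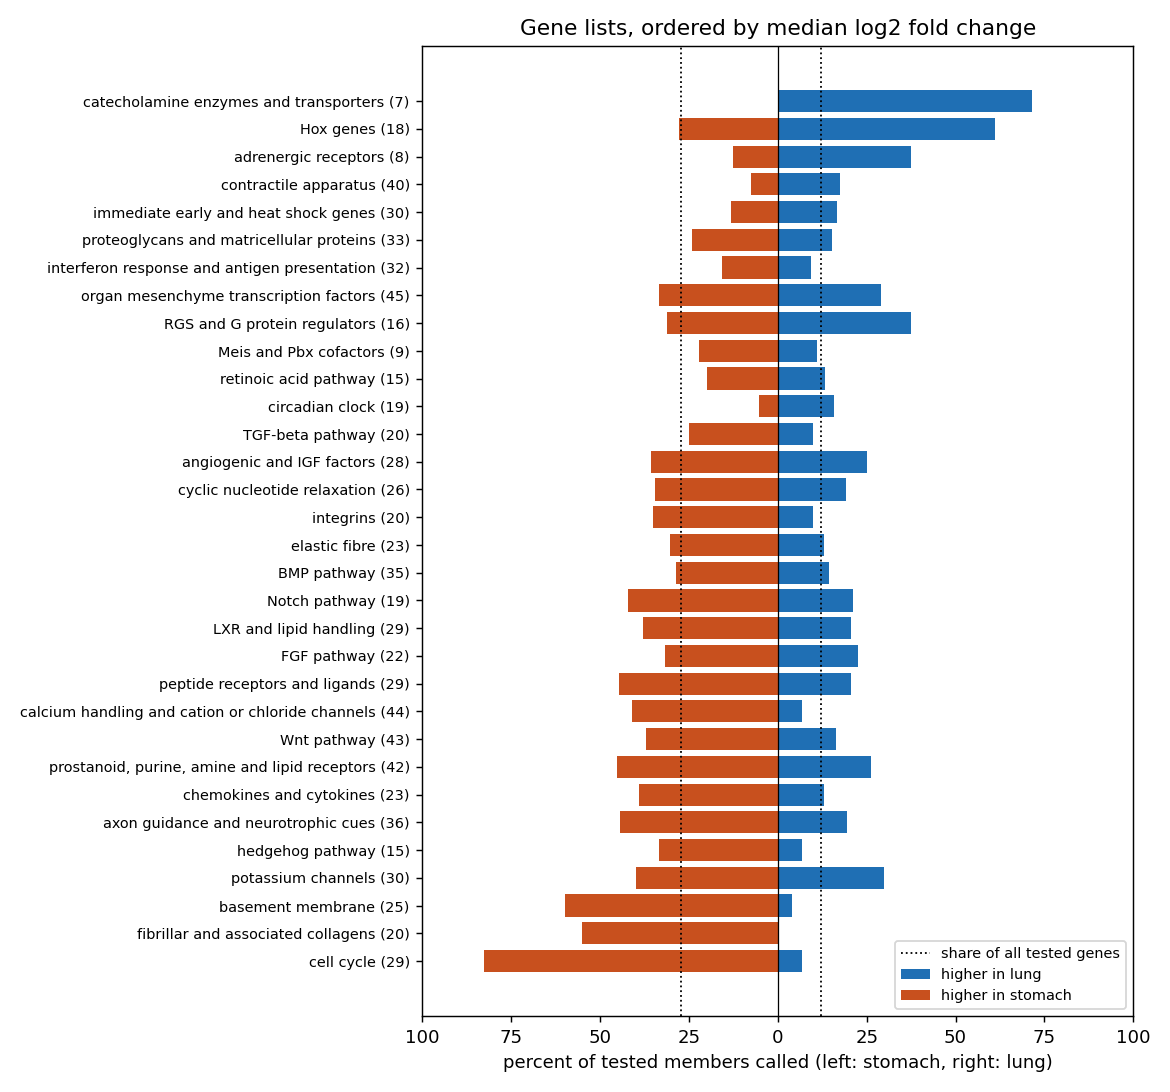
Share of the tested members of each list called higher in stomach (bars to the left) and higher in lung (bars to the right), in percent, ordered by median log2 fold change; dotted lines give the shares over all tested genes, 27.2% and 12.1%, and tested numbers stand in parentheses. Cell cycle, collagen and basement membrane genes reach past the dotted line on the stomach side, and catecholamine enzymes and Hox genes on the lung side.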

How the data were processed

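RNA was measured by sequencing in sorted arterial smooth muscle cells. Libraries were made with SMART-Seq v4, which copies full-length cDNA, from no more than 10 ng of RNA, per the labels' protocols. STAR 2.7.10a, featureCounts 2.0.4, Trimmomatic 0.39, Picard 3.0.0, DESeq and DESeq2 1.36.0 are named, without a role, in the submitters' processing notes, as is the build mm39. The table the authors deposited has 28099 genes, and its values are a signal, made of whole numbers that the size of their steps shows to be scaled in each library. Its header states no unit. A test for scaled values was used in place of one for counts.

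limma 3.58.1 (R 4.3.3, trend) was fitted to log2(signal + 1), a pseudocount of 1 that understates changes of low genes. The fit held the 6 lung and stomach libraries and the 14553 genes that reached a signal of 10 in 3 or more of them. The worth of 1 read was found by a likelihood search and gave rebuilt reads, the depth and the floor of 3 reads, which cover counting error only. Where 1 read is worth less than 1 unit of signal, whole reads could not be recovered exactly. Exonic lengths came from GENCODE M21, matched for 96.2% of genes.

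Named genes were, per direction, the 12 largest called changes with a mean of at least 100 and no overlap, leaving out markers of other cells and unnamed predicted genes, and the 8 largest with a mean of at least 100 in both organs. From each described list up to 4 called per direction and the 2 with the highest mean were eligible, with a fixed set of organ factors; further list members, and which lists to describe, were chosen after values were seen. Some genes that the rule or the lists held are not reported here. Members and lists were chosen with earlier results of these data known. Promoter windows came from RefSeq (GRCm38.p6). On simulated data the test recovered 100% of 8-fold and 45% of 2-fold changes, the latter 99% with adjusted p alone. A true 2-fold change lies at the call minimum itself. There was 1 false call among 14366 unchanged genes of 14566 tested. The simulated counts had the same dispersion for every gene, few changed genes and no library that stood apart. They therefore do not give the error rate of the real comparison.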

Additional observations from a re-analysis of the deposited data

Results flagged for a closer look

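Pnmt in intestine was listed at 3 in intestine 4 and at 0 in the other 3 libraries, so that 1 library stood apart by the whole range of its group. It was 1 of 12 intestine groups examined. With the other 3 libraries at 0, any signal above 0 would stand apart in this way, so the rate of about 1 in 20 groups that chance gives does not apply. The lung level of Pnmt, 375 ± 45.3 over 3 libraries, is far above it.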

How the results depend on the processing

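No gene was called in the opposite direction under any alternative run, and both counts stayed within 1.5 times except in 3 cases. With all 22 libraries in 1 fit, which pools the spread of shallower tissues, 981 genes were higher in lung and 1906 in stomach, and 47.5% of the calls were also made. With adjusted p alone 3962 were higher in lung. Leaving out each library in turn gave 1561 to 1845 higher in lung and 3528 to 4178 in stomach. Lung 1 alone against stomach, chosen after seeing the data and with its spread assumed to match the other libraries, gave 1971 and 4295, with 88.9% of the calls also made. With no filter the counts were 2279 and 4193, and under the read ceiling 1375 and 3608. Same-numbered lung and stomach libraries did not deviate together (correlations 0.02, 0 and -0.01), which cannot show whether they share an animal. With the replicate block 1695 and 3942 were called. Of 368 genes examined singly, between 8 and 14 lost their call when 1 library was left out, 21 with lung 1 alone and 98 with all 22 libraries. Contractile genes higher in lung numbered 27 by adjusted p alone and 3 under the read ceiling. Count-based tests of edgeR and DESeq2 were not run, since whole reads were not exactly recovered. Depth limits signals near the floor of 3 reads, 2.37 in lung and 1.7 in stomach.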
